A study of Nothobranchius furzeri with 3 samples.

Results

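mir-21 and mir-22 (nfu-mir-21 and nfu-mir-22 in the count table) are the 2 features described here, of 324 in the small RNA of old killifish skin. They were chosen by name, as microRNAs (miRNAs) linked to injury and to cell senescence, and each name belongs to 1 row. The turquoise killifish, Nothobranchius furzeri, is an annual fish with a short adult life. All 3 libraries were made from skin of males of the strain MZM-04/10p aged 39 weeks, and they are named libraries 1, 2 and 3 in accession order. There is 1 group, with no younger fish, wounded skin or other tissue, so the values are levels in old skin and cannot show a change with age or injury. Whether each library came from a separate fish is not stated in the labels, so SDs measure only how these libraries vary, which can include technical variation. The p-values likewise apply to these libraries alone.

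A miRNA is a short RNA that guides an Argonaute protein to matching sites, mostly in the untranslated end of messenger RNAs, and lowers their translation or stability. miR-21 lies next to the gene VMP1 in vertebrates and is raised in many states of injury, inflammation, fibrosis and tumour growth. Its known targets in mammals include PDCD4, an inhibitor of translation. miR-22 is made from a non-coding host transcript in mammals, is raised in senescent human fibroblasts, and has known targets there that include the deacetylase SIRT1 and the cell cycle kinase CDK6. In mammalian skin both are present in normal tissue, and miR-21 rises after wounding.

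Both miRNAs were among the 10 most abundant features of every skin library, at nearly the same mean level. mir-21 had 204782, 254762 and 488726 counts in libraries 1, 2 and 3, and mir-22 had 161387, 318405 and 490306. These counts come from library totals of 5021238, 8545292 and 9590428. As a share of all counts, mir-21 took 4.08% of library 1 (95% exact Clopper-Pearson interval 4.06 to 4.10), 2.98% of library 2 (2.97 to 2.99) and 5.096% of library 3 (5.08 to 5.11). mir-22 took 3.21% (3.199 to 3.23), 3.73% (3.71 to 3.74) and 5.11% (5.099 to 5.13). Library 3 was the highest for both, while the lowest was library 2 for mir-21 and library 1 for mir-22. These intervals cover counting error only and treat each read as independent. Reads without molecular identifiers may be PCR copies, so the intervals may be too narrow even for that. They are far narrower than the gaps between libraries.

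Over the 3 libraries the mean share was 4.05% ± 1.06 for mir-21 and 4.02% ± 0.982 for mir-22 (SD, n = 3). The means were close, but the shares of mir-21 and mir-22 were 4.08% and 3.21% in library 1 and 2.98% and 3.73% in library 2. These gaps ran in opposite directions and largely cancelled in the means. Only in library 3 were the shares nearly equal. Together both features held 7.29%, 6.71% and 10.2% of libraries 1, 2 and 3, a mean of 8.07% ± 1.88 (SD, n = 3). About 1 count in 24.5, 33.5 and 19.6 was mir-21, and 1 in 31.1, 26.8 and 19.6 was mir-22. In a bulk tissue sample, a lower share from fewer cells of a type and one from less of the miRNA per cell cannot be told apart.

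The ratio of mir-21 to mir-22 within a library is free of depth and scaling, and it took 3 distinct values. It was 1.27 in library 1 (95% exact interval 1.26 to 1.28), 0.800 in library 2 (0.796 to 0.804) and 0.997 in library 3 (0.993 to 1.001). mir-21 thus led in library 1, mir-22 led in library 2, and in library 3 the interval included equality. The mean log2 ratio was 0.01 ± 0.33 (SD, n = 3), and a two-sided, exact permutation test by sign flips gave p = 1, where 0.25 is the smallest p that 3 libraries allow. The sign of this mean depended on single libraries: it was -0.16 without library 1, 0.17 without library 2 and 0.01 without library 3. With 3 libraries this test could not have detected an order of the 2 miRNAs, so none is concluded from it. The libraries themselves did not share an order. The ligation of adapters, which captures some sequences better than others, adds a bias of unknown size to any ratio of different miRNAs.

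**Figure D1:**
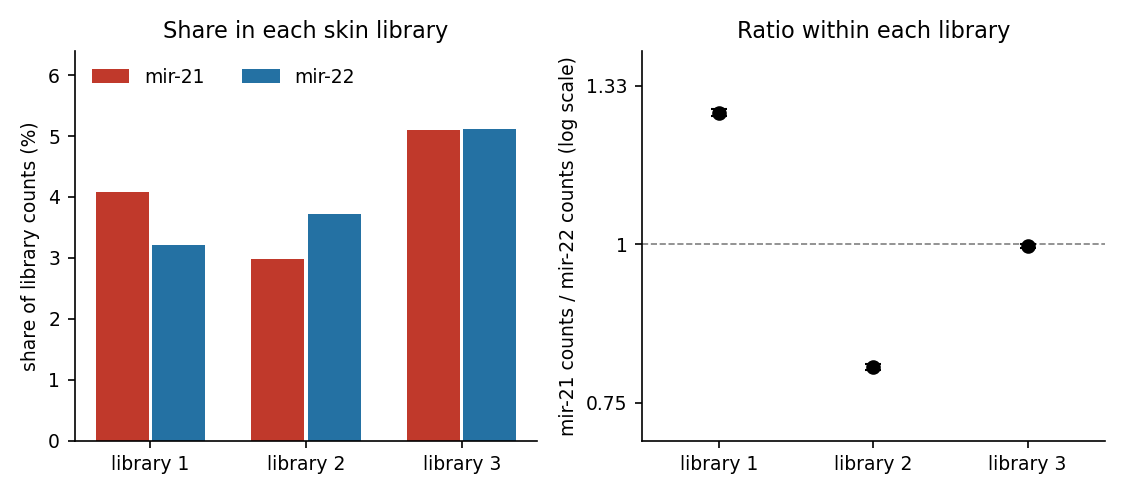
The bars give the share of library counts (%) of mir-21 and mir-22 in each of the 3 skin libraries, and the points give the mir-21 count over the mir-22 count within each library, on a log axis, with 95% exact intervals for counting error. Both bars are highest in library 3 (5.096% and 5.11%), and the ratio is 1.27, 0.800 and 0.997 in libraries 1, 2 and 3, above, below and at equality.

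By rank, mir-21 stood at 7, 10 and 7 and mir-22 at 8, 8 and 6 in libraries 1, 2 and 3, of 324 features, 266 of which had a count in any library. Their places by mean share were 8 and 9. In library 1 mir-21 followed mir-27 (4.14%) and mir-22 followed mir-21, just ahead of let-7 (3.13%). In library 2 mir-22 lay between mir-27 (4.19%) and mir-455 (3.03%), and mir-21 came after mir-455 and ahead of mir-199 (2.21%). In library 3 mir-22 came next after mir-205 (7.71%), and mir-21 followed it, ahead of mir-27 (3.88%). The features ranked above mir-21 held 72.7%, 80.4% and 65.9% of counts in libraries 1, 2 and 3.

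Of the features next to them in mean share, 2 stood above both in every library. mir-181, a family expressed in many tissues, exceeded the mean share of mir-21 by 2.79-fold, and mir-205, a miRNA of stratified epithelium, by 1.64-fold. let-7, a regulator of differentiation, was above each of them in 1 library of 3 (library 2), and mir-27, of the miR-23/27/24 cluster, in 2 of 3 (libraries 1 and 2), so these places in the order were not separated. mir-455, which lies in a collagen gene in vertebrates, was above mir-21 in library 2 and below mir-22 in all 3. mir-337 was below both in every library, and so were mir-92, of the miR-17-92 family of clusters, and mir-199, a miRNA of mesenchyme. Relative to mir-27, whose share was 4.07% ± 0.164 (SD, n = 3), mir-21 had a ratio of 0.986, 0.712 and 1.31 and mir-22 one of 0.777, 0.890 and 1.32 in libraries 1, 2 and 3.

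**Figure D2:**
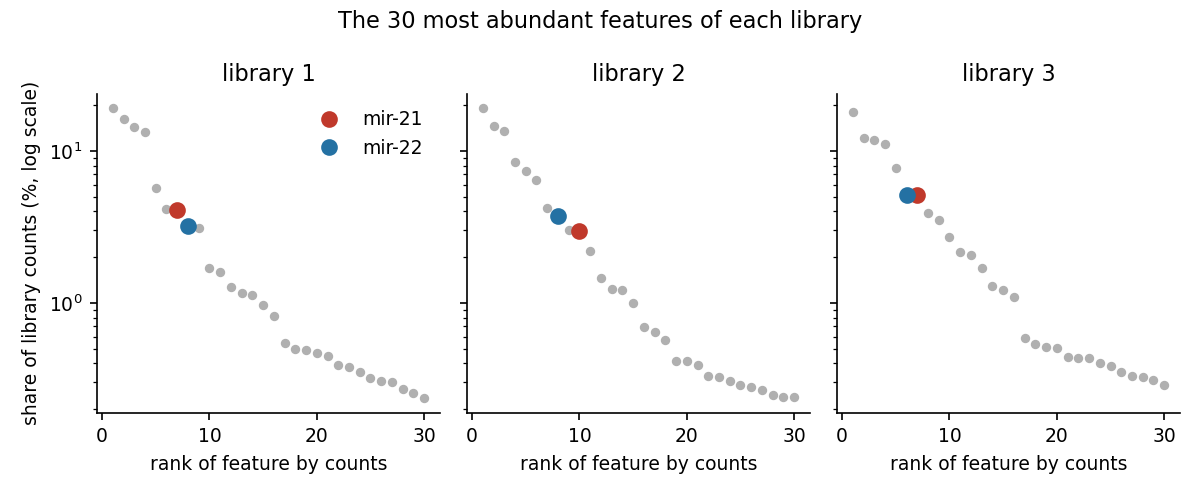
Each panel shows the 30 most abundant features of 1 library, with rank by counts on the horizontal axis and share of library counts (%, log scale) on the vertical axis. mir-21 (rank 7, 10 and 7) and mir-22 (rank 8, 8 and 6) lie on the slope below the leading features in every library.

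Both members differed between libraries beyond counting error by a chi-square test of the 3 counts with Benjamini-Hochberg adjustment over the 158 features whose mean count reached 10. So did 81.6% of all features tested, 129 of 158, so this says nothing particular about the 2 miRNAs. It compares these libraries, not conditions. Both also differed in each pair of libraries, where the share of features called was 69.8% for libraries 1 and 2, 69.2% for 1 and 3, and 75.9% for 2 and 3. Changes are given next as counts per 1000000 (CPM) scaled by the trimmed mean of M-values (TMM), which corrects for differences in composition.

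In TMM-scaled CPM mir-21 had 43392, 30077 and 47476 in libraries 1, 2 and 3, and mir-22 had 34197, 37590 and 47629. Both were highest in library 3, and mir-21 was lowest in library 2, where mir-22 took its middle value. Library 3 exceeded library 2 by 1.58-fold for mir-21 (95% counting interval 1.57 to 1.59) and by 1.27-fold for mir-22 (1.26 to 1.27). Library 3 exceeded library 1 by 1.09-fold for mir-21 (1.09 to 1.10) and by 1.39-fold for mir-22 (1.38 to 1.40).

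The choice of scaling shifts all features alike, so the members were also set against the median feature of the 115 whose mean count reached 100, a comparison that does not depend on it. From library 1 to library 2, the log2 change of mir-21 minus that of the median feature was -0.66, while that of mir-22 was 0.01. From library 1 to library 3, mir-21 was itself the median feature, and mir-22 was 0.35 above it. From library 2 to library 3, mir-21 was 0.72 and mir-22 0.40 above the median. Relative to the median feature, then, mir-21 was set apart by library 2 and mir-22 by library 3. The median itself moved by 0.21, 0.32 and 0.06 in these 3 comparisons with library totals, and by 0.13, 0.13 and -0.06 with TMM.

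Scaling decided some orders and not others. mir-21 was lowest in library 2 under TMM, library totals, DESeq2 size factors, a centred log-ratio and a total without the 4 leading features. Its highest library was 3, except under the last of these, where library 3 stood at 0.991 of library 1. mir-22 was highest in library 3 under all 5, but its ratio of library 2 to library 1 was 1.16 with library totals and 1.10 with TMM, against 0.987 with DESeq2 size factors, 0.965 with the centred log-ratio and 0.972 without the leading features. Which of libraries 1 and 2 was lower in mir-22 thus cannot be told.

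Both miRNAs varied less between libraries than the median feature, under each of the 5 scalings. The highest library exceeded the lowest by 1.58-fold for mir-21 and by 1.39-fold for mir-22 in TMM-scaled CPM, against a median of 1.92-fold over the 115 features whose mean count reached 100. Of these features, 37 had a smaller range than mir-21 and 24 a smaller range than mir-22, and 46.1% exceeded 2-fold, which neither member did. Among the 20 features nearest in mean level, 8 varied less than mir-21 and 5 less than mir-22, with a median of 1.70-fold. Those 20 are not close in level, since their mean shares ran from 0.405% to 15.7%. Over the 5 scalings the range was 1.58-fold to 1.71-fold for mir-21 and 1.298-fold to 1.59-fold for mir-22, while the median lay between 1.84-fold and 1.92-fold. Of the 115 features, 37 to 48 had a smaller range than mir-21 and 19 to 42 a smaller range than mir-22. The place of each thus depended on the scaling, and that of mir-21 came closer to the middle under others than TMM. Without library 2 the range of mir-21 was 1.09-fold, and without library 3 that of mir-22 was 1.10-fold. The biological coefficient of variation is the spread between libraries beyond counting error, here as estimated by edgeR and moderated over features. It was 0.3602 for mir-21 and 0.347 for mir-22, against a median of 0.420 over the 158 features and a common value of 0.456. Without moderation, the SD over the mean of TMM-scaled CPM was 22.6% for mir-21 and 17.5% for mir-22. A lower biological coefficient was found for 8 features than for mir-21 and for 4 than for mir-22 with edgeR. With DESeq2 these numbers were 51 and 28. With edgeR and libraries 1, 2 or 3 left out in turn they were 31, 2 and 45 for mir-21 and 13, 11 and 3 for mir-22, so the place of the members in this order depends on the tool and on single libraries.

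**Figure D3:**
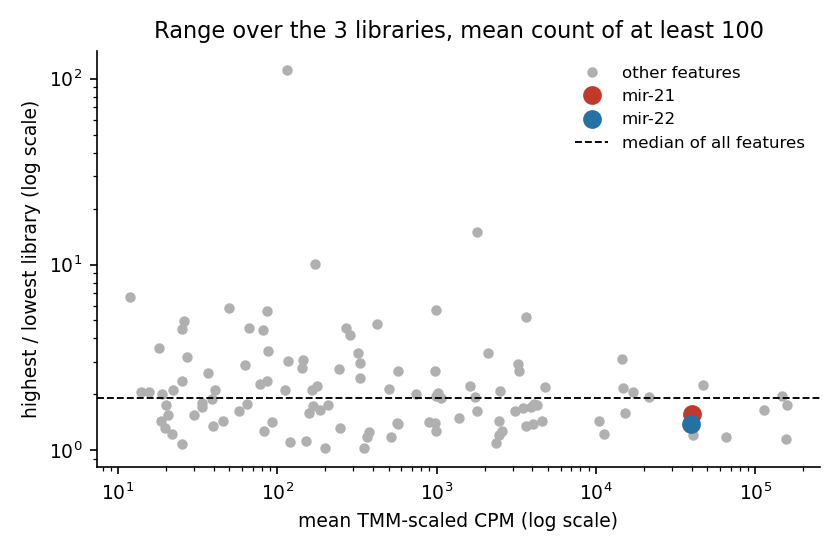
Each point is 1 of the 115 features whose mean count reached 100, with mean TMM-scaled CPM on the horizontal axis and the ratio of its highest to its lowest library on the vertical axis, both on log scales. mir-21 (1.58-fold) and mir-22 (1.39-fold) lie below the dashed median of 1.92-fold.

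The ratio of mir-21 to mir-22 ranged 1.59-fold over the 3 libraries, from 0.800 to 1.27. Of the 190 pairs that the 20 most abundant features form, 50 had a steadier ratio, and the median range was 2.03-fold. The steadiest of all 190 was mir-22 with mir-8. mir-8 is the fly name of the miR-200 family, which keeps epithelial cells in their epithelial state in vertebrates. mir-22 had 10.1 times the counts of mir-8 in library 1 (95% exact interval 9.89 to 10.2), 9.54 times in library 2 (9.44 to 9.65) and 10.1 times in library 3 (9.98 to 10.2), a range of 1.06-fold. The intervals of libraries 1 and 3 overlapped, and that of library 2 lay below both. A smallest value among 190 pairs is a description of these 3 libraries, and it carries no test.

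For mir-22 the next steadiest partners among the 20 most abundant were mir-92, with a range of 1.14-fold, and the epithelial mir-205, with 1.18-fold. mir-22 had 0.562, 0.576 and 0.663 times the counts of mir-205 in libraries 1, 2 and 3. Within these 20, mir-21 had no partner as steady: its closest were mir-181 (range 1.37-fold), mir-26 (1.38-fold) and mir-30 (1.39-fold). Its ratio to mir-8 ranged 1.67-fold and that to mir-205 1.55-fold. Against mir-181, mir-21 stood at 0.306, 0.351 and 0.419 in libraries 1, 2 and 3. The least steady partners among the 20 were let-7 for mir-21, with a range of 3.56-fold, and the muscle miRNA mir-133 and let-7 for mir-22, each with 2.86-fold.

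Over the same 115 features, likeness to each member was measured as the largest difference, over the 3 libraries, between log2 values centred on each feature's own mean. This measure ranks 114 other features on only 3 libraries of differing depth, so close patterns are bound to occur. For mir-22 the 5 nearest were mir-8 (largest difference 0.05), mir-210, which responds to low oxygen (0.06), mir-155, a miRNA of activated leukocytes (0.07), mir-139 (0.08) and mir-92 (0.11). mir-210 had 216.6, 244 and 286 TMM-scaled CPM and mir-155 had 77.3, 92.4 and 110 in libraries 1, 2 and 3. Each had its lowest value in library 1 and its highest in library 3. mir-155 was scarce, at a mean share of 0.0094%. mir-22 had 442, 407 and 433 times its counts in libraries 1, 2 and 3. The exact intervals for counting error were 399 to 491, 379 to 437 and 409 to 460. These intervals overlap, so the place of mir-155 is not resolved beyond counting error. The same holds for mir-210, of which mir-22 had 157.9, 154.0 and 166.3 times the counts in libraries 1, 2 and 3. Those intervals, 148.5 to 168.1, 147.5 to 160.9 and 160.4 to 172.5, also overlap. No such interval was computed for mir-139. For mir-21 the nearest were mir-727 (0.09), the insect name mir-11 (0.20), the herpesvirus name mir-BHRF1 (0.21), mir-25 (0.22) and the herpesvirus name mir-BART15 (0.23). Of these, mir-727, mir-BHRF1 and mir-BART15 were also scarce, at mean shares of 0.0065%, 0.0020% and 0.0041%, so counting error weighs on their places too. What killifish sequence those insect and viral names stand for is not given in the sources used here. mir-22 came 14th among the features most like mir-21, at a difference of 0.34, and mir-21 came 25th for mir-22.

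**Figure D4:**
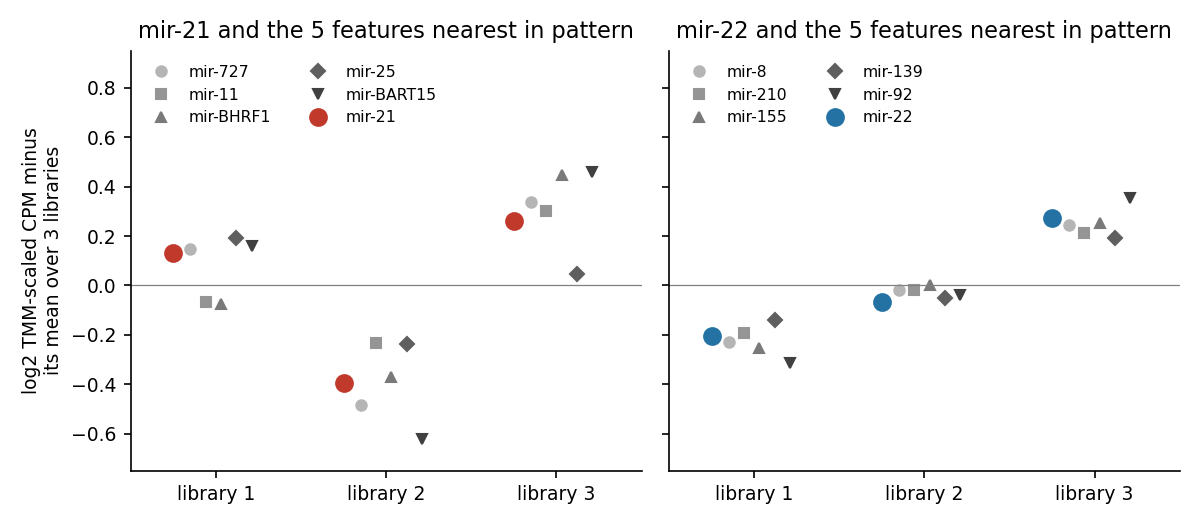
Points give log2 TMM-scaled CPM minus the feature's own mean over the 3 libraries, for mir-21 (left, red), mir-22 (right, blue) and the 5 features nearest to each in pattern (grey). The 5 features around mir-22 stay within 0.11 of it in every library, whereas those around mir-21 differ from it by up to 0.23. Both panels hold scarce features, mir-155 among those on the right, on whose places counting error weighs more.

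The order of the libraries from low to high was 2, 1, 3 for mir-21 in TMM-scaled CPM, an order shared by 17 of 115 features in all, or 14.8%. For mir-22 it was 1, 2, 3, shared by 22 features, or 19.1%. Neither order stands out among the 6 possible, the rarest of which was seen in 11.3% of features and the most frequent in 21.7%. Library 3 was the highest for 39 of the 115 features.

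Marker miRNAs of the cell types in skin also differed between libraries. The epidermis list holds mir-205, mir-203, mir-8 and mir-200, the last at 0 counts in every library. It took 6.31%, 7.14% and 8.73% of counts in libraries 1, 2 and 3, the order of the shares of mir-22. Its sum rested mainly on mir-205, at 5.72%, 6.47% and 7.71%, while mir-203 was nearly level in libraries 1 and 2 (0.271% and 0.280%). Which of libraries 1 and 2 was lower in mir-22 depends on the scaling, so this shared order is not firm. In TMM-scaled CPM it was the order of 19.1% of features whose mean count reached 100. Striated muscle miRNAs (mir-1, mir-133 and mir-499) took 1.64%, 0.667% and 2.23%, the order of the shares of mir-21. miR-206, also on that list, names no feature. The sum rested mainly on mir-133, at 1.59%, 0.644% and 2.17%. This order was that of 14.8% of features in TMM-scaled CPM. Without the 4 leading features in the total, library 3 was at 0.991 of library 1 in mir-21, so this shared order is not firm either. Leukocyte miRNAs (mir-142, mir-150, mir-155 and mir-223) took 0.167%, 0.346% and 0.171%, and erythroid miRNAs (mir-144 and mir-451) took 0.113%, 0.226% and 0.0509%. The sums of these 2 blood lists were highest in library 2, where mir-21 was lowest. Of the leukocyte features, mir-142 and mir-223 followed that order, whereas mir-150 and mir-155 were highest in library 3. The mesenchyme list (mir-143, mir-145, mir-199, mir-214 and mir-214/mir-3120) took 1.92%, 2.71% and 1.89%. That sum rested on mir-199, at 0.967%, 2.21% and 1.29%, since mir-143 (0.549%, 0.330% and 0.384%) and mir-145 (0.351%, 0.110% and 0.161%) were lowest in library 2. mir-214 (0.0518%, 0.0661% and 0.0509%) was also highest in library 2, at a much smaller share than mir-199. The endothelial mir-126 took 0.487%, 0.415% and 0.312%. The part of any of these in the levels of mir-21 and mir-22 was not tested.

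In a list of miRNAs reported to rise in senescent vertebrate cells, which includes mir-22 but not mir-21, mir-22 was the second most abundant in old skin. The list was chosen with earlier results of these data known, and this place depends on its make-up. The list holds 8 miRNA numbers, of which those of miR-335 and miR-152 name no feature of the table. Since names may stand for families, a missing name does not show that the reads are absent. Only mir-181, at 11.3% ± 2.52, exceeded mir-22, and it did so in every library. mir-146, a brake on inflammatory signalling, took 0.251% ± 0.0836 and mir-29, which targets collagen transcripts, 0.107% ± 0.0357 (SD, n = 3 each). mir-34, a target of the tumour suppressor p53 in mammals, was scarce, with 110, 138 and 166 counts, or 18.5 ± 3.05 CPM, and mir-217 had 93, 153 and 98 counts, or 15.5 ± 4.63 CPM. The mean share of mir-22 was thus 2177 times that of mir-34, a ratio that includes the unknown capture bias of each sequence. Of the 6 features, 5 differed between libraries by the chi-square test, 83.3% against the 81.6% of all features, and their median range was 1.79-fold against 1.92-fold. All 6 had a mean count of at least 100, a depth at which 112 of 115 features differed.

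Of the 4 numbers of miRNAs reported to decline in senescent cells, those of mir-17 and mir-19, both of the miR-17-92 clusters, name features, and those of miR-20 and miR-106 do not. Here too, reads of miR-20 and miR-106 may be counted under other names. mir-17 took 0.0675%, 0.146% and 0.0939% of libraries 1, 2 and 3, and mir-19 took 0.0575%, 0.161% and 0.0764%. Both were highest in library 2 and lowest in library 1, an order that neither mir-21 nor mir-22 had. In TMM-scaled CPM it was the most frequent order, at 21.7% of the 115 features. mir-92, of the same family of clusters, took 1.14%, 1.45% and 2.06%, the order of the shares of mir-22. Both mir-17 and mir-19 differed between libraries by the chi-square test, as did 81.6% of all features and 112 of the 115 with a mean count of at least 100. mir-22 exceeded mir-17 by 39.3-fold and mir-19 by 40.8-fold in mean share.

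In the list of skin wound and injury miRNAs, mir-21 and mir-27 led at nearly equal mean shares, 4.05% ± 1.06 and 4.07% ± 0.164. The list holds 11 numbers and 12 features, all with at least 10 counts in every library. mir-199 followed at 1.49% ± 0.643, then mir-203, a regulator of keratinocyte differentiation, at 0.356% ± 0.139, mir-146 at 0.251% ± 0.0836 and mir-29 at 0.107% ± 0.0357. The neutrophil and macrophage miRNA mir-223 held 0.0568% ± 0.0345, and mir-210 held 0.0251% ± 0.00525. mir-31 and mir-132, which are raised in keratinocytes at the edge of mammalian wounds, held 186 ± 47.6 CPM and 39.6 ± 4.32 CPM, the related name mir-132b held 19.8 ± 2.21 CPM, and mir-155 held 94.1 ± 22.8 CPM. mir-21 exceeded mir-146 by 13.2, 19.2 and 17.6 times in libraries 1, 2 and 3. Without mir-21 the list took 5.83%, 7.13% and 6.20% of counts in libraries 1, 2 and 3. The higher sum in library 2 rested on mir-199: without it as well, a choice made after seeing the data, the sums were 4.87%, 4.92% and 4.91%. Of the 12 features, 11 differed between libraries, 91.7% against 81.6% of all features, and their median range was 1.61-fold. All 12 had a mean count of at least 100. Of the 115 features at that depth, 112 differed, so the list did not stand above features as deep.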

How the data were processed

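Per the labels' protocols, total RNA of skin was made into libraries with Illumina's TruSeq kit for small RNA. The authors deposited raw read counts, as whole numbers per miRNA name and library, not normalized or pooled. Tools listed in the submitters' processing notes are SAMtools 1.3.1-9, BWA 0.7.12-r1039, Trimmomatic 0.36 and bcl2fastq 1.8.4, without their settings. Not given in the sources used here are the genome build, the annotation of miRNAs, how reads with multiple matches were treated and how reads were counted. Names carry no arm (5p or 3p) and may stand for families, so reads of related copies of mir-21 or mir-22 cannot be separated.

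Shares and CPM used the library total. TMM factors (0.94, 0.99 and 1.07 for libraries 1, 2 and 3) and coefficients of variation (intercept-only design, mean count of at least 10) came from edgeR 4.0.16, run in R 4.3.3 with DESeq2 1.42.0 as the alternative, and other values from pandas 2.3.3, scipy 1.17.1 and numpy 2.4.6 in Python 3.11.15. The chi-square test and the coefficient of variation were tested on simulated data. Counts for the chi-square test held counting error and changes set in a single library. Those for the coefficient gave all features the same value. Both settings are simpler than these libraries. Named features were the members, the 4 features above and 4 below each in mean share, the 5 most alike in pattern and the list members. A planned search for shared seeds was not run. Ratios to further features (mir-26, mir-30, mir-133, let-7 as partners) were named after their values were seen. Members and lists were chosen with earlier results of these data known.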

Additional observations from a re-analysis of the deposited data

How the results depend on the processing

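Alternatives were other denominators, scalings, count filters and dispersion tools, and each library left out in turn. The centred log-ratio, the total without the 4 leading features and the coefficient of variation with library totals were added once the data had been seen. No pairing of conditions was possible because there is only 1 group. The 2 miRNAs were paired within each library for their ratio. Of 67 recomputed values 62 kept their direction and stayed within 1 SD of the reported share or rank, or within 1.5-fold of the reported range, coefficient or count, with only the sign compared for the log2 ratio. That tolerance is wide, and part of this agreement was fixed in advance. Leaving 1 of 3 libraries out cannot move a mean share by 1 SD. Nor can it take the range of mir-22 (1.39-fold with all 3) out of the 1.5-fold tolerance, since a range can only shrink. For these ranges the TMM factors of all 3 libraries were kept, so they are the folds between the libraries left and not new fits. Leaving out library 1 could not change the range of mir-21, whose highest and lowest libraries both stayed in. With each library left out, the range was 1.09-fold to 1.58-fold for mir-21 and 1.099-fold to 1.39-fold for mir-22. The smallest values came when library 2 and library 3, respectively, were dropped. The mean log2 ratio of mir-21 to mir-22 changed sign, at -0.16 to 0.17 with each library left out. The mean rank was 6 to 8 for mir-21 and 7 to 9 for mir-22 with each library left out. With the leading feature, mir-204, taken out of the denominator, the shares were 4.78% and 4.74%. With each library left out, 108 to 123 features differed between libraries, against 129. Each member had 161387 counts or more in every library, so counting error is small beside the spread between the 3 libraries. Capture bias, PCR copies and names without an arm also limit these values.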
